A study of Mus musculus with 30 samples.

Results

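The Gaa knockout effect in whole spinal cord was compared between 2 genetic backgrounds of mice. The contrast took the knockout minus wild-type difference on the mixed B6;129;DBA2/J background and subtracted from it the same difference on the B6;129 background, gene by gene on a log2 scale. This difference of differences is called the interaction. It is positive where the knockout raised a transcript more, or lowered it less, on the mixed background. It used 12 of the 30 libraries of the series, 3 from each of 4 groups of untreated male mice aged 4 months, and it was computed for the 15838 genes that passed a filter on low values.

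The groups on B6;129 were Gaa WT (mice 4, 5 and 6) and Gaa KO (mice 1, 2 and 3). The groups on the mixed background were Gaa WT (mice 1, 3 and 4) and Gaa KO (mice 6, 7 and 8), and the labels give all mice of that background, wild type included, the genotype Ltbp4D36/D36. The labels state no Ltbp4 genotype for the B6;129 mice. A further 3 libraries came from Gaa KO mice of the mixed background injected into a vein as neonates with an AAV9 vector that encodes human GAA under a liver-muscle promoter. They shared the estimate of the spread but had no place in the contrast. The column names put all B6;129 libraries in series A and all mixed-background libraries in series B, and in a comparison between backgrounds the 2 factors cannot be told apart. The labels do not say whether mice of a group were littermates.

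The product of Gaa is acid alpha-glucosidase, which degrades glycogen inside lysosomes. Without it glycogen fills lysosomes of muscle and of neurons and glia in the spinal cord, which is the basis of Pompe disease. Loss of a lysosomal enzyme in nervous tissue is known to be accompanied by activation of microglia and astrocytes and by higher transcripts of other lysosomal proteins. Inbred mouse strains differ by many sequence variants, so that a gene knocked out on several backgrounds is read against different levels of other genes. Ltbp4 encodes a binding protein of latent TGF-beta, and the allele carried by DBA/2J mice is known to worsen muscular dystrophy.

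The untreated cord libraries held 19208733 to 34207758 reads each. Mitochondrially encoded transcripts took 6.99% to 7.70% of the reads on B6;129 and 13.2% to 17.1% on the mixed background. Between the wild-type groups 66.8% of all tested genes differed (34.5% lower and 32.3% higher on the mixed background), and between the knockout groups 64.2% differed. The split of these calls moved with the scaling: 5123 were higher and 5462 lower in the mixed-background wild types, but 3464 and 7409 when mitochondrially encoded genes were left out, and 5057 and 3670 after a correction for transcript length and GC content. All 18 motor neuron, 18 astrocyte and 23 myelin markers were measured in the cord. Skeletal muscle transcripts varied within groups, with a summed signal of 133 to 772 in wild type and 161 to 331 in knockout on B6;129, and 266 to 2462 and 347 to 647 on the mixed background.

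The targeted gene fell on both backgrounds. The deposited signal of Gaa, a normalized count, was 218, 221 and 236 in wild type and 17.7, 17 and 15.7 in knockout on B6;129, and 131, 139 and 144 against 13.4, 12.1 and 10.6 on the mixed background. The knockout effects were -3.70 ± 0.09 (log2 ± SE) and -3.47 ± 0.09, and the interaction was 0.24 ± 0.12 with an adjusted p of 0.497. Every knockout library lay below every wild-type library. Ltbp4 was 27.6, 26.4 and 31.2 in wild type and 25.9, 29.1 and 27.4 in knockout on B6;129. On the mixed background it was 11.6, 13.6 and 10.6 in wild type and 20.6, 16.4 and 14.5 in knockout. The wild-type and knockout libraries of Ltbp4 overlapped on B6;129 and did not overlap on the mixed background, but its interaction of 0.54 ± 0.16 did not pass the test (adjusted p = 0.171).

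The interaction was called for 83 genes at an adjusted p under 0.05, or 0.524% of those tested. It was positive for 66 of them (0.417% of tested genes) and negative for 17 (0.107%). Over all tested genes the median interaction was 0.01 and the median SE of a gene's interaction 0.14, and 1860 genes had an unadjusted p under 0.05 (7.39% of all tested genes with a positive and 4.34% with a negative interaction). The smallest called interaction was 0.31 in size, and 17 positive and 10 negative calls exceeded 2-fold. The count rests on individual libraries: it was 51, 41 and 55 without knockout mouse 1, 2 or 3 of B6;129, 47, 45 and 47 without wild-type mouse 4, 5 or 6 of B6;129, and 46 and 52 without knockout mouse 6 or 8 of the mixed background. Other tools gave 65 (edgeR) and 278 (DESeq2) genes, and the model on the 12 untreated libraries alone 144.

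**Figure D1:**
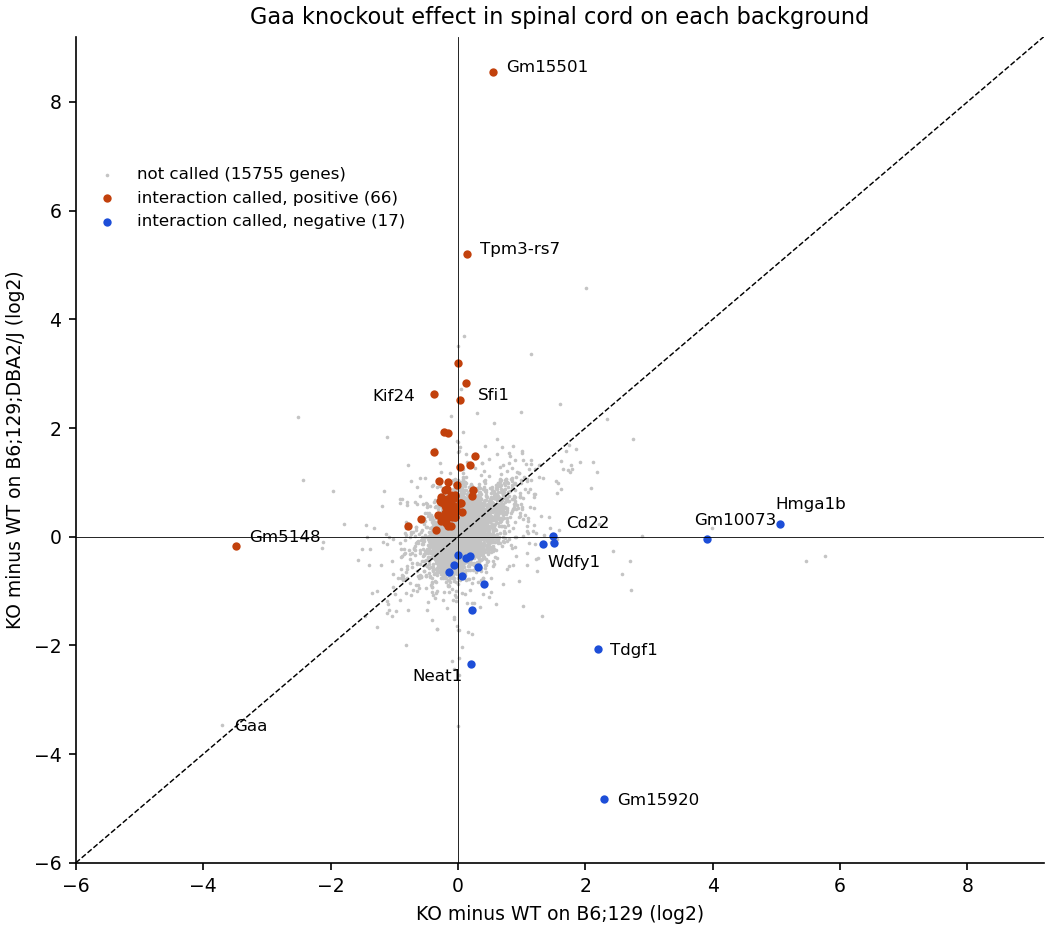
Knockout minus wild-type difference of each tested gene on B6;129 (x axis, log2) and on B6;129;DBA2/J (y axis, log2), with the dashed line where both are equal. The 66 genes with a positive called interaction (red) lie above the line and the 17 with a negative one (blue) below it, and Gaa lies near the line at -3.70 and -3.47.

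On B6;129 the knockout changed 183 genes (1.16% of tested genes, 158 up or 0.998% and 25 down or 0.158%). On the mixed background it changed 2061 (13.0%, 1134 up or 7.16% and 927 down or 5.85%). These counts moved with single libraries. On B6;129 there were 97 without knockout mouse 2, 100 without wild-type mouse 4 and 111 without wild-type mouse 5, and on the mixed background 917 without wild-type mouse 4, 1137 without knockout mouse 6 and 1346 without knockout mouse 8. The split on the mixed background depended on the scaling, with 992 up and 1208 down after each library was centred on its median and 985 up and 1362 down after a correction for transcript length and GC content. A total of 128 genes rose on both backgrounds, which is 81.0% of the genes up on B6;129 and 11.3% of those up on the mixed background. The interaction was called for 0 of these 128 by limma and by edgeR and for 4 by DESeq2, with 16 at an unadjusted p under 0.05 in limma. Over all 15838 tested genes limma called 0.524%, and 1860 had an unadjusted p under 0.05, so these limma counts are near the shares over all genes. Choosing genes that rose on both backgrounds also selects against an interaction, so the 0 is not a test of equal effects. Across genes the knockout effects on the 2 backgrounds had a Pearson r of 0.33, given as a description since genes share the libraries and are not independent. The larger number of calls on the mixed background is a difference between 2 counts and not a test that the effects differ.

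Some lysosomal genes rose on each background. Over all tested genes 0.998% rose and 0.158% fell on B6;129, and 7.16% rose and 5.85% fell on the mixed background. The list counts in this and the following paragraphs are to be read against these shares. The interaction was called for 0.524% of all tested genes by limma, and for 65 genes by edgeR and 278 by DESeq2. A count of 0 interactions in a short list is near what these give and does not show equal effects. Of 12 cathepsins, the proteases of the lysosome, 6 rose on B6;129 (median of the list 0.40) and 8 on the mixed background (median 0.47), and the interaction was called for 0 by limma, edgeR and DESeq2, with 0 positive and 3 negative at an unadjusted p under 0.05. Ctsd, an aspartic protease, was 245, 255 and 261 in wild type and 497, 513 and 534 in knockout on B6;129, and 253, 277 and 309 against 451, 470 and 454 on the mixed background. Its knockout libraries were above all wild-type libraries on both backgrounds, and its interaction was -0.30 ± 0.11 (adjusted p = 0.295). Of 36 other lysosomal hydrolases and membrane proteins, 9 rose on B6;129 and 17 rose and 1 fell on the mixed background (medians 0.20 and 0.21). The interaction was called for 0 of the 36 by limma and edgeR and for 1 by DESeq2, with 2 positive and 3 negative at an unadjusted p under 0.05. Of 18 measured subunits of the vacuolar ATPase, the proton pump of lysosomes, 0 were called on B6;129 and 2 rose and 2 fell on the mixed background (medians 0.03 and 0.00), and the interaction was called for 0 by all 3 tools, with 0 at an unadjusted p under 0.05. Single members had values apart from the median without passing the test: the interaction of Glb1, a beta-galactosidase, was -0.73 ± 0.18 (adjusted p = 0.104). The members named in this and the following paragraphs on gene lists were chosen after their values were seen, except Csf1r and Col4a2.

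Genes of activated microglia were among those that rose on both backgrounds. Among 25 genes of disease-associated microglia, the phagocytic state described in degenerating nervous tissue, 14 rose on each background, 12 of them on both. Their medians were 0.75 on B6;129 and 0.58 on the mixed background, and the median interaction was -0.18. The interaction was called for 0 of 25 by limma and edgeR and for 1 by DESeq2, with 1 positive and 7 negative at an unadjusted p under 0.05, a level that 4.34% of all tested genes reached with a negative interaction. Cd68, a lysosomal membrane protein of phagocytes, was 2.57, 3.13 and 2.96 in wild type and 9.78, 10.9 and 12.1 in knockout on B6;129, and 2.95, 3.21 and 2.88 against 8.52, 7.14 and 7.09 on the mixed background. Its groups did not overlap on either background, and its interaction of -0.56 ± 0.16 did not pass the test (adjusted p = 0.147). Cst7, an inhibitor of cathepsins, went from 0.131, 0.11 and 0.188 to 3.43, 3.79 and 4.25 on B6;129 and from 0.186, 0.274 and 0.142 to 1.58, 3.62 and 1.16 on the mixed background, with an interaction of -0.95 ± 0.39 (adjusted p = 0.344). The knockout libraries of Cst7 overlapped between the backgrounds through 1 mixed-background library. Gpnmb, a membrane glycoprotein of lipid-laden phagocytes, was 13.4, 15.9 and 12.4 in knockout on B6;129 and 0.121, 4.52 and 4.44 on the mixed background. The mixed-background knockouts of Gpnmb were all below those of B6;129 and spread widely among themselves, and its interaction of -2.88 ± 1.17 had an adjusted p of 0.342. Sequence variants of the strains were not examined, so the part of a variant in the levels of Gpnmb was not tested.

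Csf1r was the only 1 of 16 homeostatic microglia genes with a called interaction, against 0.524% of all tested genes. It encodes the receptor for colony-stimulating factor 1, on which microglia depend for survival, and lies at chr18:61100598-61132149 (GRCm38). Its signal was 54.1, 52 and 48.6 in wild type and 60, 61.1 and 60.1 in knockout on B6;129, and 39.2, 40.3 and 40.2 against 67.7, 68.5 and 67 on the mixed background. The wild-type libraries of the mixed background were the lowest and its knockout libraries the highest of all 12, with no overlap among the 4 groups. The knockout effects were 0.23 ± 0.05 (adjusted p = 0.0591) and 0.76 ± 0.05 (adjusted p = 4.58e-06), and the interaction was 0.53 ± 0.08 (adjusted p = 0.00663, 95% interval 0.36 to 0.69). It passed under each of the 11 other settings and without each of the 12 libraries. P2ry12, a purinergic receptor that marks homeostatic microglia, rose on both backgrounds (0.58 and 0.72, interaction 0.14 ± 0.12, adjusted p = 0.729). Over the 16 genes, 3 rose on B6;129 and 9 on the mixed background, with medians of 0.31 and 0.58 and a median interaction of 0.16. In bulk tissue more microglia and more RNA per microglial cell cannot be told apart.

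Some complement and astrocyte reactivity genes rose on each background, where 0.998% (B6;129) and 7.16% (mixed background) of all tested genes rose. Of 16 complement genes 6 rose on B6;129 and 8 on the mixed background (medians 0.47 and 0.51), and the interaction was called for 0 by limma and edgeR and for 1 by DESeq2, with 2 positive and 2 negative at an unadjusted p under 0.05. The C1q chains, which start the classical pathway, had log2 effects of 1.62 and 1.39 (C1qa), 1.62 and 0.88 (C1qb) and 1.56 and 0.81 (C1qc) on B6;129 and the mixed background. Of 22 astrocyte reactivity genes 8 rose on B6;129 and 11 on the mixed background (medians 0.59 and 0.56), and the interaction was called for 0 by all 3 tools, with 1 positive and 1 negative at an unadjusted p under 0.05. Gfap, the intermediate filament of astrocytes, had an interaction of 0.39 ± 0.19 (adjusted p = 0.447) on knockout effects of 1.02 and 1.40. Serpina3n, a protease inhibitor of reactive astrocytes, rose on the mixed background (1.37 ± 0.36, adjusted p = 0.0236) and was 0.15 ± 0.36 on B6;129, with an interaction of 1.23 ± 0.51 (adjusted p = 0.35).

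Some MHC class I and interferon genes were called on the mixed background and not on B6;129, but their interactions did not pass the test. Of 16 genes of MHC class I and its peptide loading, 0 were called on B6;129 and 10 rose on the mixed background, with medians of 0.22 and 0.75. Among all tested genes 0.998% rose on B6;129 and 7.16% on the mixed background. The interaction was above 0 for 15 of the 16 with a median of 0.44, against 0.01 over all tested genes. It was called for 0 by limma and edgeR and for 2 by DESeq2, with 6 positive and 0 negative at an unadjusted p under 0.05. Over all tested genes 7.39% had a positive interaction at that level. B2m, the light chain of class I molecules, was 66.1, 57.4 and 66.7 in wild type and 110, 87.3 and 109 in knockout on B6;129, and 68.5, 92.1 and 79.4 against 173, 164 and 199 on the mixed background. Knockout libraries were above wild-type libraries on both backgrounds, and the interaction was 0.48 ± 0.25 (adjusted p = 0.48). Tap1, a subunit of the peptide transporter, was 3.70, 2.31 and 3.44 against 3.60, 3.51 and 2.51 on B6;129 and 1.70, 2.38 and 2.22 against 4.25, 3.98 and 4.77 on the mixed background (interaction 0.87 ± 0.25, adjusted p = 0.164). H2-Q4, H2-Q6 and H2-Q7 had interactions of 1.26 ± 0.40, 1.77 ± 0.60 and 1.55 ± 0.51, with adjusted p-values of 0.221, 0.252 and 0.238, and these class I genes share sequence with each other, so their separate levels are uncertain. Without wild-type mouse 4 of the mixed background 6 of the 16 genes rose there. Of 6 measured MHC class II genes, 0 were called on B6;129 and 1 rose on the mixed background (medians 0.02 and 0.07). Their median interaction was -0.02, with 3 of the 6 above 0, and it changed sign among settings (-0.40 to 0.59). These 6 genes do not settle whether class II differs from class I. The listed lymphocyte markers summed to 12.3 to 42.9 in the 12 libraries, with 3 of 15 measured.

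Of 30 interferon-stimulated genes, 0 were called on B6;129 and 15 rose on the mixed background (medians 0.12 and 0.57). Among all tested genes 0.998% rose on B6;129 and 7.16% on the mixed background. All 30 interactions were above 0, with a median of 0.48 against 0.01 over all tested genes. The interaction was called for 0 by limma and edgeR and for 1 by DESeq2, with 13 positive and 0 negative at an unadjusted p under 0.05, and the smallest adjusted p was 0.147. Irf7, a transcription factor of the interferon response, was 1.67, 1.59 and 2.82 in wild type and 2.30, 2.29 and 2.02 in knockout on B6;129, and 1.70, 2.00 and 1.02 against 3.14, 2.99 and 5.92 on the mixed background. Ifit3, an antiviral effector, was 8.24, 9.19 and 16.4 against 12.7, 13 and 9.72 on B6;129, and 8.22, 9.67 and 8.29 against 15.7, 16 and 19.8 on the mixed background. Ifit3 shares 46.6% of its 61-base windows with other genes, so its level is uncertain. In both genes the groups overlapped on B6;129 and were apart on the mixed background, and 1 wild-type library of B6;129 and knockout mouse 8 of the mixed background were the highest of their groups. Without knockout mouse 8 the number that rose on the mixed background was 7, and with a filter at a signal of 4 it was 9. The summed signal of the 30 genes was 182 to 221 and 203 to 221 in wild type and knockout on B6;129, and 186 to 206 and 245 to 329 on the mixed background.

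Endothelial genes showed the same arrangement with a large difference between the wild-type groups. Of 18 endothelial markers 0 were called on B6;129 and 9 rose on the mixed background (medians 0.04 and 0.46). Among all tested genes 0.998% rose on B6;129 and 7.16% on the mixed background. All 18 interactions were above 0, with a median of 0.43 against 0.01 over all tested genes. The interaction was called for 0 by limma and edgeR and for 4 by DESeq2, with 8 positive and 0 negative at an unadjusted p under 0.05. Pecam1, an adhesion molecule of endothelial cells, was 16.1, 15.3 and 16.3 in wild type and 14.7, 18.3 and 14.7 in knockout on B6;129, and 4.88, 4.34 and 6.09 against 9.63, 9.09 and 8.42 on the mixed background. Its interaction was 0.79 ± 0.17 (adjusted p = 0.0591), and every mixed-background library lay below every B6;129 library. Abcb1a, a drug efflux pump of the blood-brain barrier, was 36.9, 33.4 and 31.3 against 34.4, 35.6 and 34 on B6;129, and 9.37, 8.09 and 9.02 against 13.9, 11.9 and 12.1 on the mixed background (interaction 0.46 ± 0.11, adjusted p = 0.0952). Of the 18 markers 14 were lower and 2 higher in wild type of the mixed background than of B6;129, with a median difference of -1.04. The summed endothelial signal was 424 to 455 and 434 to 468 in wild type and knockout on B6;129, and 249 to 281 and 338 to 362 on the mixed background. Without wild-type mouse 4 of the mixed background 5 of the 18 rose there. Blood cell markers (11 measured) summed to 551 to 800.3 and 711 to 1534 in wild type and knockout on B6;129 and to 214 to 328 and 303 to 1068 on the mixed background, and markers of meninges and fibroblasts (17 measured) to 309 to 352, 318 to 647, 341 to 1089 and 444 to 921 in the same order. Median knockout effects on B6;129 and the mixed background were 0.61 and 0.11 for the blood cell markers. For the markers of meninges and fibroblasts they were 0.35 and -0.10, with 1 of the 17 interactions above 0 and a median interaction of -0.47. In both lists 0 genes were called on either background. The part of these cells in the immune and endothelial differences was not tested.

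**Figure D2:**
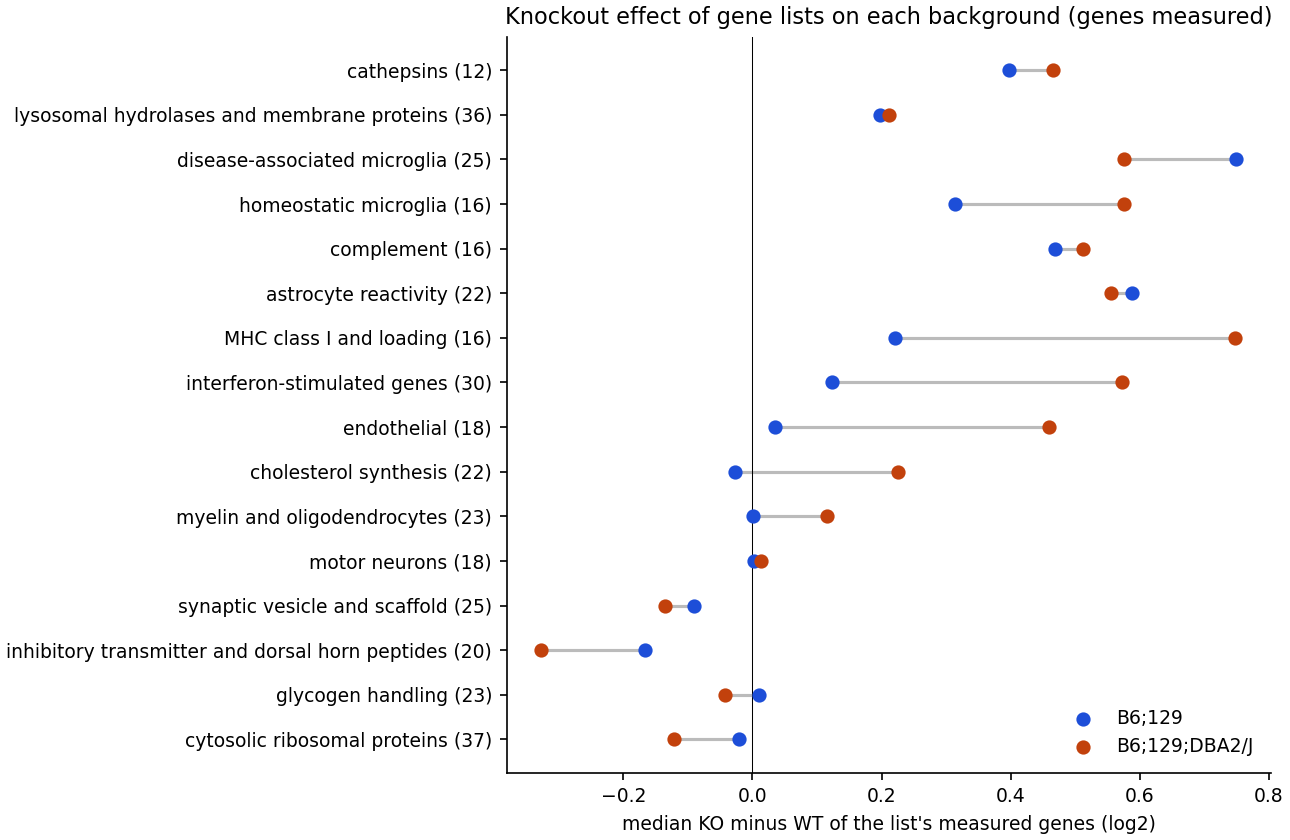
Median knockout minus wild-type difference (log2, x axis) of the measured genes of 16 lists on B6;129 (blue) and B6;129;DBA2/J (red), with the number of genes measured in brackets. Among the 16 lists shown, wide gaps are in the MHC class I (0.22 and 0.75), interferon (0.12 and 0.57) and endothelial (0.04 and 0.46) lists, while cathepsins (0.40 and 0.47) and astrocyte reactivity (0.59 and 0.56) lie close together. The lists of blood cells (0.61 and 0.11) and of meninges and fibroblasts (0.35 and -0.10), with gaps in the other direction, are not shown.

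Some genes of inhibitory neurons fell on the mixed background, and their interactions did not pass the test. The share of all tested genes that fell was 0.158% on B6;129 and 5.85% on the mixed background. Of 20 genes of inhibitory transmission and dorsal horn peptides, 0 were called on B6;129 and 9 fell on the mixed background (medians -0.17 and -0.33), and the interaction was called for 0 by all 3 tools, with 0 positive and 2 negative at an unadjusted p under 0.05. Gad2, which makes the inhibitory transmitter GABA, fell by 0.41 on the mixed background and was -0.19 on B6;129, and Penk, the enkephalin precursor, fell by 0.48 and was -0.15. The 9 became 1 without wild-type mouse 4, 3 without knockout mouse 6 and 2 without knockout mouse 8 of the mixed background. Of 18 motor neuron markers 0 were called on B6;129, and 1 rose and 1 fell on the mixed background (medians 0.00 and 0.01). Of all tested genes 7.16% rose and 5.85% fell there. Of 23 genes of glycogen handling 1 fell on B6;129, and 1 rose and 2 fell on the mixed background, with a median interaction of -0.02. Gaa encodes an enzyme that degrades glycogen and fell on both backgrounds through the knockout itself. A fall counted for Gaa here is therefore not a response to the knockout.

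All 22 cholesterol synthesis genes had an interaction above 0 (median 0.23, against 0.01 over all tested genes). Their median knockout effects were -0.03 on B6;129 and 0.23 on the mixed background. The interaction was called for 0 by limma and edgeR and for 1 by DESeq2, with 8 positive and 0 negative at an unadjusted p under 0.05. Sqle, squalene epoxidase, rose on the mixed background (0.31, adjusted p = 0.00685) and was 0.00 on B6;129, with an interaction of 0.30 ± 0.09 (adjusted p = 0.164). A total of 4 of the 22 rose on the mixed background, and this count was 7 and 1 without wild-type mouse 1 or 4, and 1, 2 and 2 without knockout mouse 6, 7 or 8 of that background.

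The called interactions themselves had a common form. Of the 66 positive ones, 62 were called up on the mixed background and not called on B6;129, and 4 were called down on B6;129 and not called on the mixed background (Gm5148, Gucy1a3, Usp13 and Lars). Their median knockout effect was 0.60 on the mixed background and -0.15 on B6;129. In 60 of the 66 the wild-type level was lower on the mixed background than on B6;129, with a median difference of -1.28, and in 40 the knockout level was lower too (median -0.39). Over all tested genes 7.16% rose and 5.85% fell with the knockout on the mixed background. Wild-type levels were lower there in 34.5% of all tested genes, and knockout levels in 5101 of 15838. The interaction equals the knockout difference between backgrounds minus the wild-type difference. A low mixed-background wild type thus favours a positive call, so the common form comes in part from how the genes were chosen. Of the 17 negative ones, 11 were called down on the mixed background alone, 5 were called up on B6;129 alone and 1, Tdgf1, was called up on B6;129 and down on the mixed background. Among all 83, the 3 wild-type libraries of the mixed background lay below the other 9 untreated libraries in 56 genes (67.5%, against 8.20% of all tested genes), and its 3 knockout libraries lay above the other 9 in 12 (14.5%, against 4.19%). A called gene has to differ in at least 1 group, so these shares describe which group differs.

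Of the 57 protein-coding genes with a positive call 45 were under 2-fold, and collagen genes were among those over it. Col4a2, a chain of basement membrane collagen IV at chr8:11312805-11449287, was 54.1, 49.9 and 54.7 in wild type and 46, 53.9 and 43.4 in knockout on B6;129, and 8.62, 9.18 and 7.79 against 16.9, 16 and 20.4 on the mixed background. Groups overlapped on B6;129 and were apart on the mixed background, where both groups lay below all B6;129 libraries. The interaction was 1.16 ± 0.15 (adjusted p = 0.0029) on knockout effects of -0.15 ± 0.11 and 1.01 ± 0.11. Col4a2 was the only 1 of 24 collagen and matrix genes called, against 0.524% of all tested genes. Other collagen genes outside that list, seen only after their values were known, were also called: Col16a1 at 1.22 ± 0.18, Col11a2 at 1.14 ± 0.23 and Col27a1 at 1.07 ± 0.17, with adjusted p-values of 0.00799, 0.0428 and 0.0115. In each of them wild-type mouse 4 was the lowest library of the mixed background (9.11, 11.3 and 2.69). Their transcripts have 5206, 6048 and 7612 bases and a GC content of 61.4%, 62.9% and 59.4%. Whether their calls hold without single libraries is not given here. The median interaction of the 24 listed genes was -0.07, and it changed sign among settings (-0.33 to 0.26).

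Ap5b1, a subunit of the AP-5 adaptor complex of late endosomes and lysosomes at chr19:5568025-5571261, was 2.63, 2.72 and 2.42 in wild type and 2.20, 3.01 and 2.85 in knockout on B6;129, and 1.23, 0.879 and 0.865 against 3.10, 3.14 and 3.11 on the mixed background. Wild type on the mixed background was low and the other 3 groups were near each other. The interaction was 1.25 ± 0.19 (adjusted p = 0.00791). Slc26a11, an anion transporter at chr11:119355557-119381079, close to Gaa at chr11:119267887-119285454, had the same arrangement. It was 6.96, 7.31 and 8.25 in wild type and 6.52, 6.51 and 7.81 in knockout on B6;129, and 4.10, 4.28 and 4.11 against 7.13, 7.44 and 7.76 on the mixed background, an interaction of 0.87 ± 0.17 (adjusted p = 0.0359). Its call was lost without 11 of the 12 libraries in turn, while that of Ap5b1 was lost without 0 of 12. Slc26a11 was the 1 called gene among 23 measured genes on the chromosome near Gaa, whose median interaction was 0.12. Of all tested genes 0.524% were called.

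**Figure D3:**
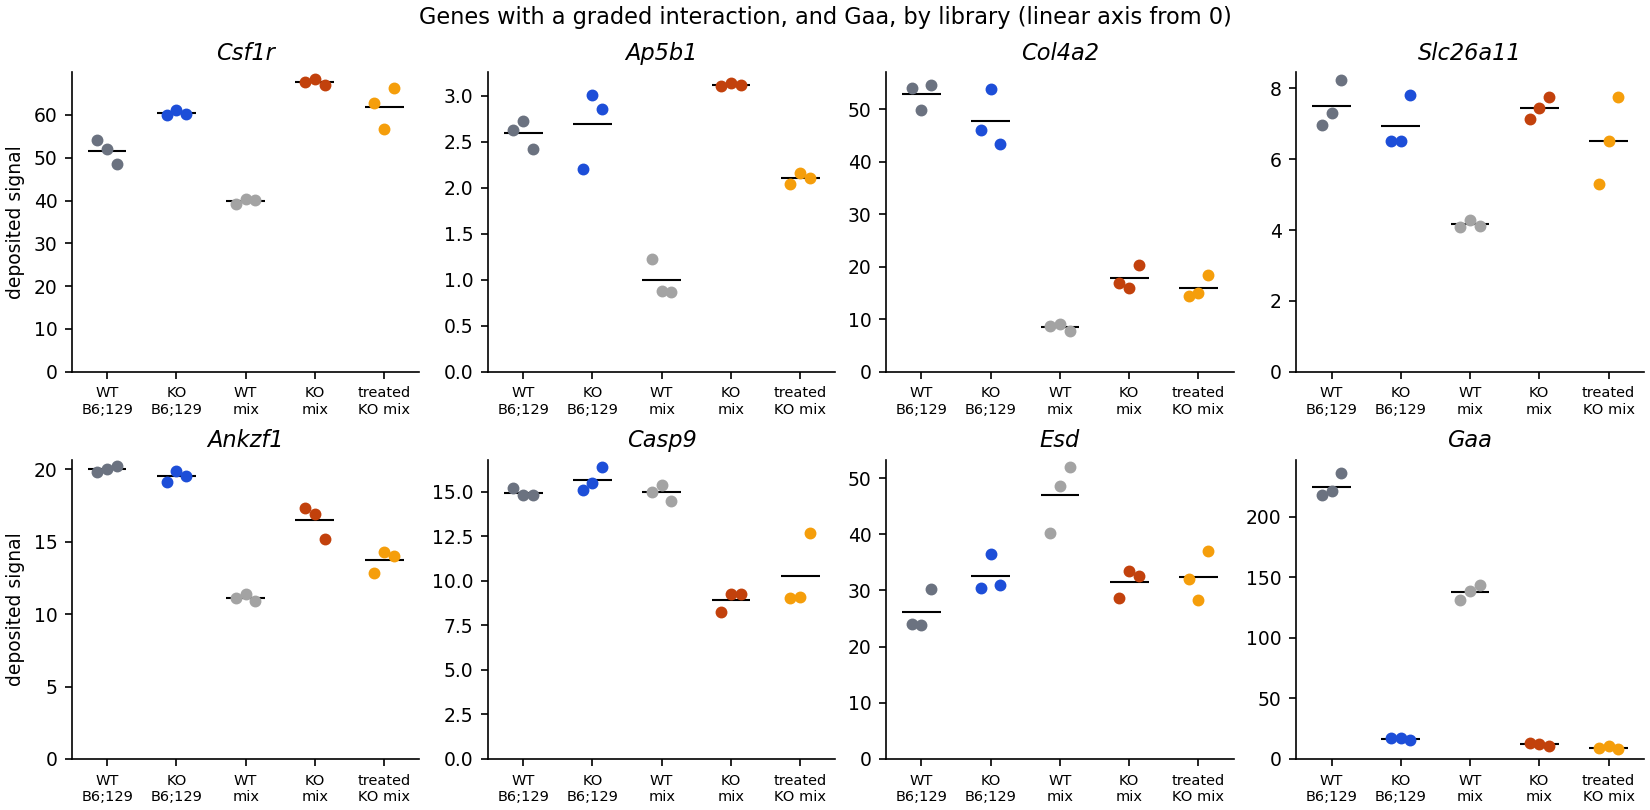
Deposited signal (y axis, linear from 0) of 7 genes with a called interaction and of Gaa in each of the 15 cord libraries, with points for libraries and bars for group means. In Csf1r, Ap5b1, Col4a2, Slc26a11 and Ankzf1 the wild-type libraries of the mixed background are the lowest, in Esd they are the highest, and in Casp9 the untreated knockout libraries of the mixed background are the lowest of the 12 untreated libraries.

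The largest positive interactions were steps between near absence and a clear level. Tpm3-rs7, annotated as protein coding at chr14:113314608-113316754, was 0.0145, 0.0157 and 0.188 in wild type and 0.111, 0.109 and 0.167 in knockout on B6;129, and 0.287, 0.447 and 0.205 against 29.2, 26.9 and 31.5 on the mixed background. The interaction was 5.05 ± 0.30 (adjusted p = 1.1e-06), and the treated knockouts of the mixed background had 51.4, 26.2 and 30.2. Its call was lost in edgeR (6.10, adjusted p = 0.0858). It passed the filter on low values only through untreated and treated knockouts of the mixed background, so its adjusted p is no separate support. Tpm3-rs7 is a single-exon gene whose coding sequence of 744 bases differs from that of Tpm3, a tropomyosin, at 3 bases, so reads of 61 bases can fit both genes. The stretch of 61 bases that holds all 3 differences is shown from GENCODE vM21 (GRCm38), from coding base 67 to 127, at chr14:113314742-113314802 for Tpm3-rs7, with the differing bases in capitals:
Tpm3-rs7: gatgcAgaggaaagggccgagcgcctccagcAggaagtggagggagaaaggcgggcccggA
Tpm3: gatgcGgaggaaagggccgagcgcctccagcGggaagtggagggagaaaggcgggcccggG
Of the 684 windows of 61 bases in this coding sequence 568 were identical in the 2 genes. The level of Tpm3-rs7 is therefore uncertain.

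Kif24, a kinesin of centrioles and cilia at chr4:41390745-41464887, shares 0.09% of its 61-base windows with other genes. It was 4.58, 4.48 and 4.53 in wild type and 3.82, 4.04 and 2.51 in knockout on B6;129, and 1.5, 1.92 and 0.928 against 13.6, 8.64 and 12 on the mixed background, an interaction of 2.99 ± 0.31 (adjusted p = 0.000366). Sfi1, a centrosomal centrin-binding protein at chr11:3131850-3193463, was 34.8, 28.8 and 35.5 against 33.8, 38.4 and 35.5 on B6;129, and 11, 9.79 and 10.5 against 84, 86.2 and 62.6 on the mixed background (2.70 ± 0.36, adjusted p = 0.0029). For Kif24 and Sfi1 the mixed-background wild types were below and the knockouts above all B6;129 libraries. Zfp979, a zinc finger gene at chr4:147611937-147642513, was 3.59, 2.91 and 3.05 against 1.96, 3.51 and 3.18 on B6;129, and 1.30, 1.17 and 1.21 against 7.03, 5.03 and 5.92 on the mixed background (2.05 ± 0.25, adjusted p = 0.00159). Kif24, Sfi1 and Zfp979 passed in every other setting and without each library.

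Gm5148, at chr3:37714190-37724490, was the step in the other direction among positive interactions. It was 7.37, 7.56 and 4.37 in wild type on B6;129 and 0.0152 to 0.172 in knockout, with 0.0169 to 0.362 in wild type and 0.0184 to 0.285 in knockout on the mixed background. It was thus present in 1 of the 4 groups and passed the filter on low values only through that group. Its adjusted p is therefore no separate support for the step. The interaction was 3.31 ± 0.35 (adjusted p = 0.000366). That value rests on 10 to 18 reads in each of the 3 low groups and ranged from 1.92 to 5.23 among settings, with the call lost in edgeR and DESeq2. The pseudogenes Gm15501, Gm9347 and Gm7901 had 0 reads in the 3 wild-type libraries of the mixed background. They passed the filter on low values only through the knockouts of that background, treated ones included. Against a floor of 3 reads per library their knockout means there (203, 4.21 and 2.49) were at least 2010-fold, 41.6-fold and 24.5-fold higher. Their fitted interactions of 7.99 ± 1.65, 3.19 ± 0.33 and 2.49 ± 0.32 depend on the pseudocount, and the calls of Gm9347 and Gm7901 were lost in edgeR. Gm15501 had a treated library at 1.42 beside 2 at 123 and 223. Its call was lost without any 1 of the 12 libraries and in 7 of 11 other settings.

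The remaining large positive interactions were B230220B15Rik (2.15 ± 0.25, adjusted p = 0.00117), AC149090.1 (1.93 ± 0.35, adjusted p = 0.0251) and Gm42860 (1.32 ± 0.27, adjusted p = 0.0444). The call of AC149090.1 was lost without 8 of the 12 libraries and in 1 of 10 other settings, and that of Gm42860 without 9 of the 12 and in 6 of 11 other settings. In each the 3 wild-type libraries of the mixed background were the lowest of the 12, at 0.488 to 1.06, 42.2 to 60.9 and 44.9 to 73.1. AC149090.1 lies on the unplaced sequence JH584304.1, and the other 2 share 93.1% and 78.6% of their 61-base windows with other genes. Windows shared with another gene over at least 50% of the transcript were found in 11 of the 82 called genes with a transcript (13.4%) and in 6.67% of all tested genes. Among the 11 were also Zfp984 (50.1%) and Gm10073 (55.05%). The levels of those 11 are uncertain, since the authors' counting may divide such reads between genes.

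**Figure D4:**
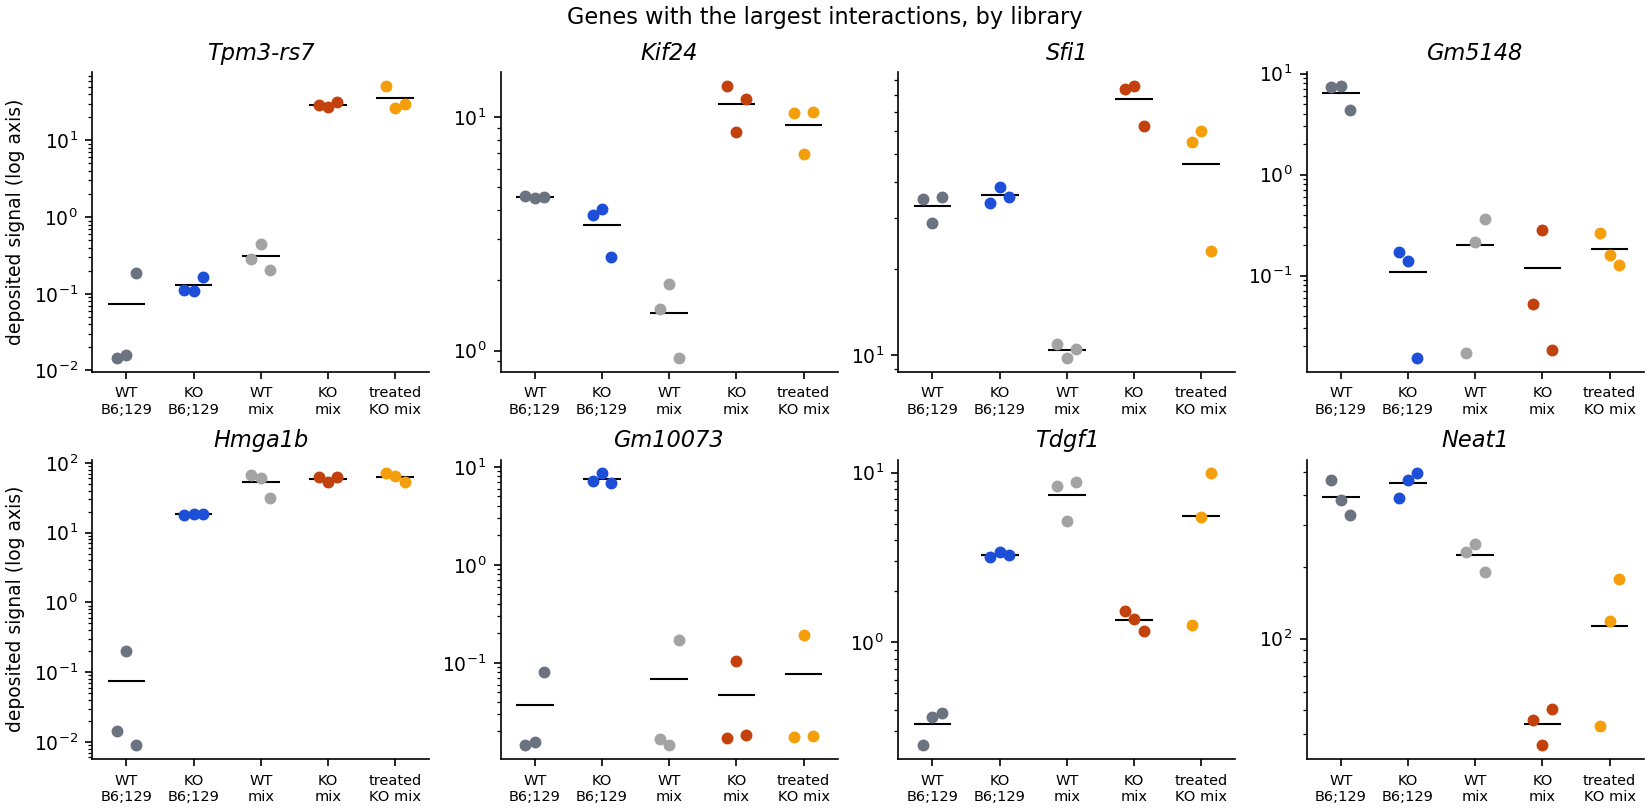
Deposited signal (y axis, log scale) of 8 genes with large called interactions in each of the 15 cord libraries, with points for libraries and bars for group means. Tpm3-rs7 stands at 26.9 to 31.5 in untreated knockouts of the mixed background and under 0.5 in the other 9 untreated libraries, and Gm10073 at 6.92 to 8.63 in knockouts of B6;129 and under 0.5 elsewhere.

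Negative interactions were fewer and included genes that were highest in the B6;129 knockouts. Gm10073, at chr8:106572966-106573461, was 7.18, 8.63 and 6.92 in knockout on B6;129, with 3 to 5 reads in all in each of the other 3 groups (interaction -3.96 ± 0.26, adjusted p = 1.44e-06). Gm10073 passed the filter on low values only through the B6;129 knockouts, where it is high, so its adjusted p is no separate support. The interaction of Gm10073 ranged from -8.97 to -2.24 among settings, and its call was lost in edgeR (adjusted p = 0.125) and DESeq2 (adjusted p = 0.204). Cd22, an inhibitory lectin of B cells and microglia at chr7:30865402-30880342, was 0.45, 0.267 and 0.188 in wild type and 1.63, 1.61 and 2.02 in knockout on B6;129, and 0.186, 0.303 and 0.0157 against 0.156, 0.165 and 0.166 on the mixed background. Its knockout effect was 1.5 ± 0.20 on B6;129 and 0.01 ± 0.20 on the mixed background, with an interaction of -1.49 ± 0.28 (adjusted p = 0.0274). It rests on 13 to 33 reads in each of the low groups, and its call was lost in edgeR and DESeq2 and without 6 of the 9 libraries that could be left out with the gene still tested. Cd22 also passed the filter on low values only through the B6;129 knockouts. Gm49369 was 5.95, 3.86 and 4.58 in knockout and 1.23, 1.84 and 1.03 in wild type on B6;129, with 5 and 0 reads in all in wild type and knockout of the mixed background (interaction -1.62 ± 0.29, adjusted p = 0.0194), and it shares 92.6% of its windows with other genes. The call of Gm49369 was lost in edgeR and without 4 of the 12 libraries.

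Hmga1b, at chr11:120762794-120764419, was near absent in a single group, and its B6;129 knockouts lay below all mixed-background libraries. It had 6 reads in all in wild type on B6;129 and a signal of 18.1, 18.8 and 18.2 in knockout, with 65.9, 60.3 and 31.8 against 62.4, 53.9 and 62.2 on the mixed background. The interaction was -4.81 ± 0.30 (adjusted p = 1.1e-06). Its coding sequence of 321 bases is identical to that of Hmga1, a chromatin protein, in GENCODE vM21, so coding reads cannot be assigned to either gene and the level is uncertain. Hmga1b lies on the chromosome of Gaa, at chr11:119267887-119285454. Wdfy1, an endosomal adaptor of Toll-like receptor signalling at chr1:79702262-79776143, was 14.3, 14.4 and 14 in wild type and 43.2, 28.3 and 40.9 in knockout on B6;129, and 35.8, 39.2 and 40.3 against 40.9, 40.6 and 25.7 on the mixed background. Wild type on B6;129 was low and the other 3 groups overlapped, with an interaction of -1.47 ± 0.26 (adjusted p = 0.0215) that was lost without 6 of the 12 libraries. Gm15920, a processed pseudogene that shares 74.9% of its windows, was at 0.102, 5.11 and 0.00894 in wild type on B6;129, a spread wider than many differences between groups, and at 12.9, 25.8 and 12.2 against 0.0173, 0.015 and 0.24 on the mixed background (-7.12 ± 0.90, adjusted p = 0.00192). Its call was lost in edgeR (adjusted p = 0.0651).

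Tdgf1 was the only called gene whose knockout effects were called in opposite directions. It encodes Cripto, a co-receptor of Nodal signalling, at chr9:110939603-110946158. It was 0.247, 0.361 and 0.384 in wild type and 3.19, 3.42 and 3.27 in knockout on B6;129, and 8.35, 5.20 and 8.76 against 1.54, 1.37 and 1.16 on the mixed background. The 4 groups did not overlap, with effects of 2.20 ± 0.43 and -2.07 ± 0.43 and an interaction of -4.26 ± 0.61 (adjusted p = 0.00631). The treated knockouts were spread from 1.27, within the range of the untreated knockouts, to 9.95, above all wild types.

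Other negative calls came from differences on the mixed background. Neat1, the long noncoding RNA of paraspeckles at chr19:5824708-5845478, was 463, 381 and 330 in wild type and 387, 463 and 494 in knockout on B6;129, and 230, 250 and 191 against 45.6, 35.7 and 50.7 on the mixed background. The groups overlapped on B6;129, and the mixed-background knockouts were the lowest of the 12. The interaction was -2.54 ± 0.49 (adjusted p = 0.0359), and the call was lost without any 1 of the 12 libraries. Casp9, the initiator caspase of the mitochondrial death pathway at chr4:141793612-141815976, was 15.2, 14.8 and 14.8 against 15.1, 15.5 and 16.4 on B6;129, and 15, 15.4 and 14.5 against 8.24, 9.24 and 9.27 on the mixed background (-0.78 ± 0.15, adjusted p = 0.0274). Casp9 stood at 1 level in 3 groups and lower in the fourth, and its call was lost without 10 of the 12 libraries. Zfp984, a zinc finger gene at chr4:147753974-147809788, was 2.08, 1.52 and 1.67 against 1.83, 2.20 and 2.33 on B6;129, and 0.861, 0.793 and 1.87 against 0.156, 0.0751 and 0.166 on the mixed background (-1.57 ± 0.30, adjusted p = 0.0306). Esd, a glutathione-linked esterase at chr14:74732297-74750765, was 24.1, 23.9 and 30.3 against 30.4, 36.5 and 30.9 on B6;129 and 40.2, 48.6 and 51.9 against 28.7, 33.4 and 32.5 on the mixed background (-0.88 ± 0.17, adjusted p = 0.0359). Gm38312 had an interaction of -1.28 ± 0.24 (adjusted p = 0.0278). In Esd the wild types of the mixed background were the highest of the 12, and its knockouts lay near the B6;129 libraries. The calls of Zfp984, Esd and Gm38312 were each lost without 9 of the 12 libraries.

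Some called genes were neighbours on a chromosome. The 10 Mb window with the most calls was chr1 from 70 to 80 Mb, with 5 of 78 tested genes (6.41%) against 0.524% of all genes. It held Ankzf1, Gmppa, Stk11ip and Slc4a3 between 75192151 and 75562172, all positive, and Wdfy1, negative. Ankzf1, a factor of ribosome quality control at chr1:75192151-75199387, was 19.8, 20 and 20.2 in wild type and 19.1, 19.9 and 19.5 in knockout on B6;129, and 11.1, 11.4 and 10.9 against 17.3, 16.9 and 15.2 on the mixed background (0.58 ± 0.09, adjusted p = 0.00923). Gmppa, a regulator of GDP-mannose synthesis at chr1:75435930-75443179, was 17.9, 16 and 17.1 against 14.3, 14.8 and 15.1 on B6;129, and 11.1, 9.99 and 9.83 against 13.4, 14.3 and 14.1 on the mixed background (0.62 ± 0.10, adjusted p = 0.0137). The wild-type libraries of the mixed background were the lowest in both, and in Gmppa the knockout libraries of B6;129 were also below its wild types. Stk11ip, which encodes a binding partner of the kinase LKB1 at chr1:75521529-75537335, and Slc4a3, an anion exchanger at chr1:75546266-75562172, had interactions of 0.69 ± 0.12 (adjusted p = 0.0144) and 0.35 ± 0.07 (adjusted p = 0.0349). The calls of Stk11ip and Slc4a3 were lost without 2 and 10 of the 12 libraries, and that of Slc4a3 also in 5 of 11 other settings. Windows with 4 calls included chr3 from 30 to 40 Mb (of 63), chr4 from 140 to 150 Mb (Casp9, Pik3cd, Zfp979 and Zfp984, of 90) and chr9 from 100 to 110 Mb (of 138). Chromosome 4 held 10 calls among 959 genes (1.04%) and chromosome 14 held 6 among 579 (1.04%), against 0.524% of all genes.

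Transcript length moved with the comparison between backgrounds. In the first of 10 equal bins of genes by transcript length (median 914 bases) the wild types of the mixed background were higher by a median of 0.86, and in the last bin (median 8350 bases) they differed by -0.62. The knockout groups differed by 0.83 and -0.54 in the same bins, and the median interaction went from -0.04 to 0.06. Positive calls had a median transcript length of 4458 bases and GC content of 55.1%, against 3314.5 bases and 49.6% over all tested genes. Over 593 genes that were both long and GC-rich, the mean deviation of a library from the genes' cord mean was 0.35 to 0.43 in wild type and 0.34 to 0.39 in knockout on B6;129, and -0.34 to -0.29 and -0.29 to -0.17 on the mixed background. On the mixed background 2 of the 3 knockout libraries were thus above all 3 wild types in these genes, and the other lay within their range. With a correction of each library for length and GC content, added after the data were seen, the interaction was called for 58 genes (40 positive and 18 negative), of which 56 were among the 83.

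**Figure D5:**
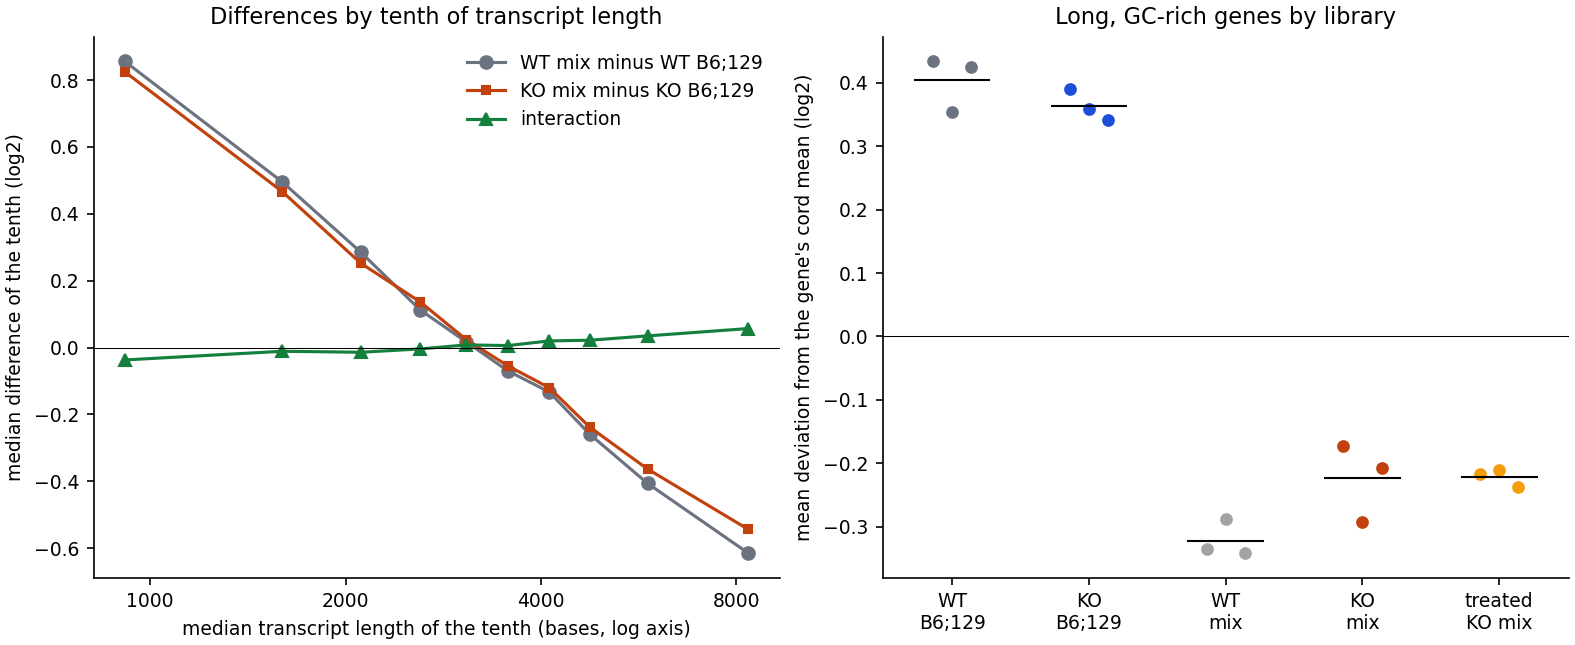
Left, median difference (log2) in 10 bins of transcript length (x axis, bases, log scale) between wild types, between knockouts and for the interaction. Right, mean deviation (log2) of 593 long, GC-rich genes in each cord library, with bars for group means: B6;129 libraries lie between 0.34 and 0.43 and untreated mixed-background libraries between -0.34 and -0.17.

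The treated knockouts of the mixed background, which the contrast did not use, lay on the side of the untreated knockouts for most called genes. All 3 treated libraries were above all 3 wild-type libraries of that background in 61 of the 66 genes with a positive interaction (14.7% of all tested genes), and below them in 11 of the 17 with a negative one (15.5% of all tested genes). The 5 positive exceptions were Slc4a3, Lars, Gucy1a3, Tspoap1 and Gm5148, and the 6 negative ones were Cd22, Tdgf1, Gm10073, Wdfy1, Hmga1b and Gm49369. The median difference from wild type was 0.47 for the positive genes, and from untreated knockout -0.10. The wild-type libraries are shared with the contrast that chose these genes, so a low or high wild-type library enters both comparisons and no test was made.

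Quadriceps of the same animals gave 40 called interactions among 14113 tested genes (0.283%). Of the 83 cord genes 69 were tested there, and 50 of these had an interaction of the same sign. The share with the same sign over all genes tested in both tissues is not given here. Median quadriceps interactions were 0.22 for the 55 positive and -0.53 for the 14 negative cord genes. Over all genes tested in quadriceps the median was -0.02. In both tissues the interaction was called for 7 genes, all with the same sign, which is 8.43% of the cord calls and 17.5% of the quadriceps calls. They were Kif24 (3.09 in quadriceps), Sfi1 (2.61), Slc26a11 (1.40), Tpm3-rs7 (3.83), Hmga1b (-4.57), Gm10073 (-5.58) and Gm15920 (-9.06). The quadriceps count was 26, 12 and 20 without knockout mouse 1, 2 or 3 and 11 and 16 without wild-type mouse 4 or 5 of B6;129, and 26 and 69 without wild-type mouse 1 or 3 and 12, 22 and 116 without knockout mouse 6, 7 or 8 of the mixed background. Both tissues come from the same 12 mice, so this is a second measurement of those animals and not a second set. Csf1r was -0.57 (adjusted p = 0.667) and Col4a2 was -0.36 (adjusted p = 0.643) in quadriceps, where neither passed the test.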

How the data were processed

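RNA from snap-frozen spinal cord was sequenced as single-end reads of 61 bases, per the labels' protocols. The submitters' processing notes name cutadapt, RSEM, edgeR, limma and the build GRCm38, and the versions are not given in the sources used here. The deposited signal values are normalized counts, and each equals the reads plus 0.5 divided by a scaled library size, so that 100% of the values gave back whole reads within 0.001 of a read. Columns were matched to samples by name. The 3 treated cord columns could be matched to their group only.

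The signal was tested as log2(signal + 0.5) in limma 3.58.1 (R 4.3.3) with a mean-variance trend, over all 15 cord libraries in 5 groups and those genes whose signal reached 1 in 3 or more of these libraries. Fold changes are on this scale, which understates changes of low genes. Benjamini-Hochberg adjusted p-values were taken over all tested genes, with calls under 0.05. edgeR 4.0.16 and DESeq2 1.42.0 were run on the recovered read counts. Scripts were tested on simulated data. Genes named in full were Gaa, Ltbp4, the 12 largest called interactions in each direction, up to 4 called members of a list and the called genes of the richest 10 Mb window. All 45 gene lists and the contrast were chosen with earlier results of these data known. Gene positions and transcripts came from GENCODE vM21, which matched 17397 of 17420 gene IDs. The libraries come from separate animals, 3 per group.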

Additional observations from a re-analysis of the deposited data

Results flagged for a closer look

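The difference of the knockout effect between backgrounds passed the interaction test for 83 genes in cord. Positive interactions (log2), where the knockout raised the transcript more or lowered it less on the mixed background, were 7.99 for Gm15501, 5.05 for Tpm3-rs7, 3.31 for Gm5148, 3.19 for Gm9347, 2.99 for Kif24, 2.70 for Sfi1, 2.49 for Gm7901, 2.15 for B230220B15Rik, 2.05 for Zfp979, 1.93 for AC149090.1, 1.32 for Gm42860, 1.25 for Ap5b1, 1.16 for Col4a2, 0.87 for Slc26a11, 0.69 for Stk11ip, 0.62 for Gmppa, 0.58 for Ankzf1, 0.53 for Csf1r and 0.35 for Slc4a3.

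Negative interactions were -7.12 for Gm15920, -4.81 for Hmga1b, -4.26 for Tdgf1, -3.96 for Gm10073, -2.54 for Neat1, -1.62 for Gm49369, -1.57 for Zfp984, -1.49 for Cd22, -1.47 for Wdfy1, -1.28 for Gm38312, -0.88 for Esd and -0.78 for Casp9. The same test passed in quadriceps of the same mice for Tpm3-rs7 (3.83), Kif24 (3.09), Sfi1 (2.61), Slc26a11 (1.40), Hmga1b (-4.57), Gm10073 (-5.58) and Gm15920 (-9.06). Groups of 3 were not tested for an outlying library by its gap to the others.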

How the results depend on the processing

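The 83 called interactions in cord became 144 with the 12 untreated libraries alone and 278 with DESeq2, of which 83 and 79 were among the main calls, and 41 to 98 without 1 library in turn. The count under the other 9 settings, edgeR and the added correction for length and GC content included, stayed between 58 and 88. The knockout effect on B6;129 had 183 calls, 386 with DESeq2 and 97 to 202 without 1 library. On the mixed background 2061 calls became 917 to 1891 without 1 library. The differences between wild types and between knockouts ranged over 9843 to 10609 and 9248 to 10234 calls without 1 library. The 40 quadriceps interactions became 10 with edgeR, 203 with DESeq2, 20 with the correction for length and GC content, which was chosen after seeing the data, and 11 to 116 without 1 library. Over 33 named genes and 742 pairs of gene and setting, 591 kept their side of the threshold, 151 no longer passed and 0 changed direction. The cause of these changes was not tested. No paired analysis was possible because the 4 cord groups are different animals, and the mouse numbers tie only the quadriceps and cord of an animal, while no test here sets a group of cord libraries against quadriceps. At these depths 3 reads are a signal of 0.0536 to 0.111, so levels below that were not resolved.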
